A study of Mus musculus with 2 samples.

Results

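Chromatin accessibility was examined at 10 genes that encode neuronal RNA-binding regulators of splicing: Rbfox1, Rbfox2, Rbfox3, Nova1, Nova2, Elavl2, Elavl3, Elavl4, Ptbp2 and Srrm4. They were chosen by name, as members of known families, and not by any measured value, though earlier results of these data were known. They are 10 of the 21938 protein-coding genes of the GENCODE M21 annotation. The data are DNase-seq libraries, in which DNase I cuts open chromatin and the cut fragments are sequenced. Left cerebral cortex was taken from 2 females of the hybrid strain B6CASTF1/J (C57BL/6J crossed with CAST/EiJ) at the age of 14 days. Each animal gave one library; the labels list both under the same donor record but number the animals separately. There is 1 group, with no treatment and no control, so no test between groups was possible, and values are given per library or as mean ± SD over n = 2.

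Proteins of these families bind short sequence elements in nuclear pre-mRNA and change which exons are kept. Rbfox proteins read UGCAUG, Nova proteins read YCAY clusters, neuronal Elavl (Hu) proteins bind U-rich and AU-rich stretches, Ptbp2 binds CU-rich tracts and often represses exons, and Srrm4 promotes the inclusion of neuronal microexons. In the brain they act together on ion channel, synaptic and cytoskeletal transcripts as neurons mature, and Rbfox3 is the antigen known as NeuN. DNase-seq reports whether the DNA of these genes is open, not how much of their RNA or protein is made.

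Replicate 1 held 90059 DNase I hypersensitive sites (DHSs, the authors' peaks) and replicate 2 held 175597, a ratio of 1.95, and 78165 merged regions held a peak of each library (shared DHSs). The height of a DHS is the authors' signal value, whose unit and scale are not stated in the sources used here, so the depth behind each value is unknown and no counting interval can be given. Promoter peaks (within 1 kb of a start site) were present in both libraries at 9 of 10 cortical neuron markers, 4 of 5 astrocyte markers, 4 of 5 oligodendrocyte lineage markers, 2 of 5 microglial markers, 1 of 5 endothelial and pericyte markers and 1 of 8 markers of other tissues (Ckm). The neuronal marker without a peak in replicate 1 was Gad2, at 0.553 in replicate 2. No sorting of cells is described, so fewer open cells and less accessibility per cell cannot be told apart in any value below.

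Sequences of 8 DHSs are shown because the results below turn on them: the highest distal sites of the 3 Rbfox genes and of Srrm4, and 4 of the highest promoter peaks. A promoter peak is shown where at least 100 bases of it lie outside every annotated exon of GENCODE and RefSeq, which leaves out those of Rbfox2, Srrm4, Ptbp2, Elavl3 and Rbfox1. The Elavl4 peak, the lowest of the 10, is left out to keep the set to 8. All are letters of the mm10 reference genome, which is built from C57BL/6J, so alleles of the CAST/EiJ parent are not shown. Each is printed 5′ to 3′ on the strand of its gene, in lower case, with the bases inside a footprint of either library in capitals. A footprint is a short stretch that the authors called as protected from cutting. The distal sites all lie in introns, at chr16:6018761-6018960 (plus strand, Rbfox1), chr15:77257461-77257680 (minus strand, Rbfox2), chr11:118738961-118739220 (minus strand, Rbfox3) and chr5:116526381-116526660 (minus strand, Srrm4). The promoter stretches of Elavl2 and Nova1 lie at chr4:91376528-91376680 (minus strand) and chr12:46819481-46819680 (minus strand, upstream of Nova1 in GENCODE). Those of Nova2 and Rbfox3 lie at chr7:18925261-18925460 (plus strand, upstream of Nova2) and chr11:118507961-118508180 (minus strand, an intron beside an internal start of Rbfox3).
Rbfox1 distal site: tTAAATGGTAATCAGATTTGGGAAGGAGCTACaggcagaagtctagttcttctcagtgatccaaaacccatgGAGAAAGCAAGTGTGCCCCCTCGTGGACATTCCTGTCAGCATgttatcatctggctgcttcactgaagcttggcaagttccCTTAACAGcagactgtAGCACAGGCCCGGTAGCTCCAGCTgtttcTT
Rbfox2 distal site: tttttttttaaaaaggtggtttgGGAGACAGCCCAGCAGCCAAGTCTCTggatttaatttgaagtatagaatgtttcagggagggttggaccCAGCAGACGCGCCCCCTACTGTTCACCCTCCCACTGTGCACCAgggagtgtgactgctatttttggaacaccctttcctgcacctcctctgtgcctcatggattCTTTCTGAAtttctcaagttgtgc
Rbfox3 distal site: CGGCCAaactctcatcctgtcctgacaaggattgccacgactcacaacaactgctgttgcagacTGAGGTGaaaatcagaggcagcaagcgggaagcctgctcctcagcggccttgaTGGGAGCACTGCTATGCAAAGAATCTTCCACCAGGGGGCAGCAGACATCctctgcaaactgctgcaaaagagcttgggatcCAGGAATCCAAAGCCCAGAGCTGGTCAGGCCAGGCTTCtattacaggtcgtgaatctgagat
Srrm4 distal site: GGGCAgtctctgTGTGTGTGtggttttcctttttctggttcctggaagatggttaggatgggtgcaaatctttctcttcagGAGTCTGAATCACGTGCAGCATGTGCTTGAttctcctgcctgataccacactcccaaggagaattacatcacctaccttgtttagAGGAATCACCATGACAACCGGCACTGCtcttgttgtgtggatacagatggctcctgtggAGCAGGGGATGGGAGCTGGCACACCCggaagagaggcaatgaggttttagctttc
Elavl2 promoter peak: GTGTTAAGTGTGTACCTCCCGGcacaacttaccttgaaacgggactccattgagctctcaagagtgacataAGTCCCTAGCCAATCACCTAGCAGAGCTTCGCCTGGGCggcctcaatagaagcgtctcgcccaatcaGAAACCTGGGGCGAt
Nova1 promoter peak: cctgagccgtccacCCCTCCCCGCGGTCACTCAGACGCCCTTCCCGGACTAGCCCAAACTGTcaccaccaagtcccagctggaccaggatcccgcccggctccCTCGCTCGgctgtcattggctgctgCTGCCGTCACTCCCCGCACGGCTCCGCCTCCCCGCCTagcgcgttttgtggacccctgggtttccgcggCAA
Nova2 promoter peak: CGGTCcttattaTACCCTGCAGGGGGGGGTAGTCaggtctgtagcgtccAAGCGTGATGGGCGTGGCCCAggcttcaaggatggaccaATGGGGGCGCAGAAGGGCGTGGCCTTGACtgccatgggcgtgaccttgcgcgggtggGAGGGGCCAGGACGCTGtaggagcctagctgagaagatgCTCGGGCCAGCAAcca
Rbfox3 promoter peak: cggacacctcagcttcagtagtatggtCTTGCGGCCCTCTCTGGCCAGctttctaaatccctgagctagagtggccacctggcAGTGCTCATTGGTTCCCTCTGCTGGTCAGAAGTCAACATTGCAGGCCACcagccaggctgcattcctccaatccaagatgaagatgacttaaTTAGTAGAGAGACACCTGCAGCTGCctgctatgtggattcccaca

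All 10 genes had a promoter peak in both libraries, where a promoter is the 1 kb on either side of the start site of any annotated transcript. Among all protein-coding genes 62.7% did (13757 of 21938), and among the 3326 protein-coding genes with 8 or more start sites, as 6 of the 10 have, 95.0% did. The members had a median of 8.5 annotated start sites against 3 for all protein-coding genes, which gives them more windows in which a peak can lie. At the most 5′ start site alone, 8 of 10 genes had a peak in both libraries, against 57.6% of all protein-coding genes (12640 of 21938). The exceptions were Elavl2 and Ptbp2. The members' median promoter signal was 2.24, beside 2.33 over all protein-coding genes with a promoter peak in both libraries, so the height of these promoters lay near the middle of the genome's range.

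Mean promoter heights ran from 1.21 to 6.44 over the 10 genes, and the SD between the libraries was at most 0.987. The highest promoter peak of Elavl2 reached 6.53 in replicate 1 and 6.35 in replicate 2 (6.44 ± 0.124, SD, n = 2), which placed it at percentile 93.4 of protein-coding promoters open in both libraries. Nova2 followed at 4.97 and 6.18 (percentile 88.9), and Nova1 at 4.73 and 3.34 (percentile 75.6). The Elavl2 values lay above those of every other member in both libraries, and the ranges of Nova2 and Nova1 did not overlap, with the lower Nova2 value at 4.97 and the higher Nova1 value at 4.73. The lowest promoters were Rbfox1, with 1.29 and 1.31 (percentile 27.6), and Elavl4, with 1.27 and 1.15 (percentile 25.2).

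The middle of the order held 5 genes whose values interleaved. Rbfox2 had 2.31 and 3.18, Srrm4 2.94 and 2.12, Ptbp2 2.00 and 1.91, Elavl3 2.13 and 1.60, and Rbfox3 1.84 and 1.62. Rbfox2 and Srrm4 overlapped each other, and so did Ptbp2 and Elavl3. Both Rbfox3 values lay between those of Elavl3, and Rbfox3 lay above Rbfox1 in both libraries. Among the Elavl paralogs, Elavl2 stood at 6.44 ± 0.124 against 1.87 ± 0.376 for Elavl3 and 1.21 ± 0.0860 for Elavl4, with no overlap between Elavl2 and the other 2 in either library. Replicate 1 was the higher library at 7 promoters and replicate 2 at 3. The median log2 ratio of replicate 2 to replicate 1 was -0.11, beside -0.18 for all protein-coding promoters open in both.

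**Figure D1:**
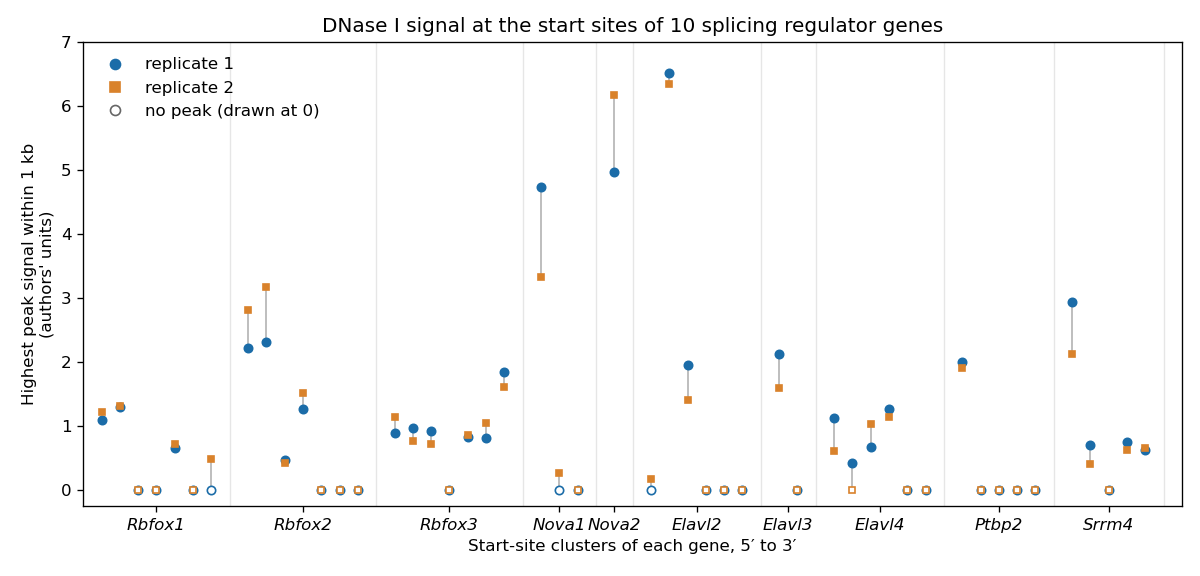
Highest peak signal (authors' units, linear axis) within 1 kb of each of the 49 start-site clusters, ordered 5′ to 3′ within each gene. Circles are replicate 1 and squares replicate 2, grey lines join both libraries, and open symbols at 0 mark a library with no peak. Elavl2 and Nova2 carry the highest points, while 19 clusters have no peak in either library.

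Most of these genes start in several places, and the annotated starts fell into 49 clusters (starts within 1 kb of each other). A peak in both libraries lay at 26 of the 49 (53.1%), against 34.6% of the 48607 clusters of all protein-coding genes. At least 2 such clusters were found in 6 of 10 members, against 11.2% of all protein-coding genes. The members had a median of 5.5 clusters against 2 for all protein-coding genes, and a gene with 1 cluster cannot reach 2. The share among genes with as many clusters was not computed. Clusters that begin a coding transcript were open in both libraries in 22 of 35 cases, and clusters of other transcripts in 4 of 14. The same split was not computed over all protein-coding genes, so this contrast cannot be called particular to the members. No peak in either library was found at 19 clusters. At 17 of those 19 the authors' list of segments with a significant cleavage rate also held nothing, while 3 further clusters had a peak in replicate 2 only and 1 in replicate 1 only.

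Clusters with and without a peak differed in base composition, which the choice of the genes did not use. The observed over expected CpG ratio within 500 bp of the first start had a median of 0.52 at the 26 open clusters (0.10 to 1.06) and 0.21 at the 19 without a peak (0.04 to 0.40). The GC content was 53.9% and 42.4% in the median. The ranges overlapped, and 1 open cluster with low CpG content was the most 5′ start of Rbfox3, with a ratio of 0.10 and signals of 0.894 and 1.15. Clusters of a gene share a locus, so these are descriptions of 49 places and not independent samples. The contrast in base composition was not computed over all protein-coding genes, so it cannot be called particular to the members. The window is centred on the first start and can miss the peak. At Ptbp2 the GC content was 42.8% in the window and 73.5% in the highest promoter peak.

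The Rbfox genes each had several open starts. Rbfox3 had peaks in both libraries at 6 of its 7 clusters. Its highest promoter peak was not at the 5′ end but beside a start 404 kb downstream of it, at 1.84 and 1.62, where the most 5′ start had 0.894 and 1.15. Rbfox2 was open at 4 of 7 clusters. Its internal start 61.4 kb downstream carried 2.31 and 3.18 and the most 5′ start 2.23 and 2.82, values that overlap.

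Rbfox1, the longest of the 10 genes at 1526 kb, was open at 3 of 7 clusters. These were its most 5′ start (1.09 and 1.22), a start 464 kb downstream (1.29 and 1.31) and one 1308 kb downstream (0.663 and 0.722). Its starts at 924, 1184 and 1339 kb had no peak in either library. The start at 1468 kb had a peak of 0.483 in replicate 2 alone.

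Among the neuronal Elavl genes, the Elavl2 promoter that held the highest value lay 24.3 kb downstream of its most 5′ start. The most 5′ start of Elavl2 had no peak in replicate 1 and one of 0.179 in replicate 2, and a second open cluster 27.8 kb downstream had 1.95 and 1.41. That second cluster lies within 1 kb of a start of the microRNA gene Mir6402, so its peak cannot be assigned to 1 of them. Elavl4 was open at its most 5′ start (1.13 and 0.612), at 61.0 kb (0.678 and 1.04) and at 64.4 kb (1.27 and 1.15), and Elavl3 only at its most 5′ start (2.13 and 1.60).

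Ptbp2, the neuronal paralog of Ptbp1, was open at 1 of 5 clusters. Its peak lay 1.17 kb inside the most 5′ start but 6 bp from another annotated start of the same cluster, which is why it missed the window of the most 5′ start. Nova1 and Nova2 were each open at 1 cluster, with the peak 622 bp and 527 bp upstream of the nearest GENCODE start. Of the 260 bases of the Nova1 peak, only 200 also lie outside the exons of RefSeq. Srrm4 was open at 4 of 5 clusters, of which the most 5′ start alone exceeded 1 in either library, at 2.94 and 2.12.

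On mm10 the Rbfox genes span chr16:5885355-7411526 (Rbfox1), chr15:77078990-77307004 (Rbfox2) and chr11:118489762-118911597 (Rbfox3). Nova1 spans chr12:46694517-46818929 and Nova2 chr7:18925888-18965319. Elavl2 and Elavl4 share a chromosome, at chr4:91250763-91400785 and chr4:110203722-110351909, and Elavl3 lies at chr9:22015005-22052023. Ptbp2 spans chr3:119718742-119784466 and Srrm4 chr5:116439275-116591817. Their median length was 149 kb against 17.4 kb for all protein-coding genes.

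Gene bodies held 153 peaks in replicate 1, 297 in replicate 2 (a ratio of 1.94, beside 1.95 genome-wide) and 133 shared DHSs. Of the 133, 104 overlapped no exon of their gene and are called intronic. By midpoint, 95 were distal, meaning over 1 kb from any annotated start site of any gene. Of those 95, 89 were intronic, 4 overlapped UTRs and 2 coding exons. Their median signal was 0.717, beside 0.709 for all 52910 distal shared DHSs.

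**Figure D2:**
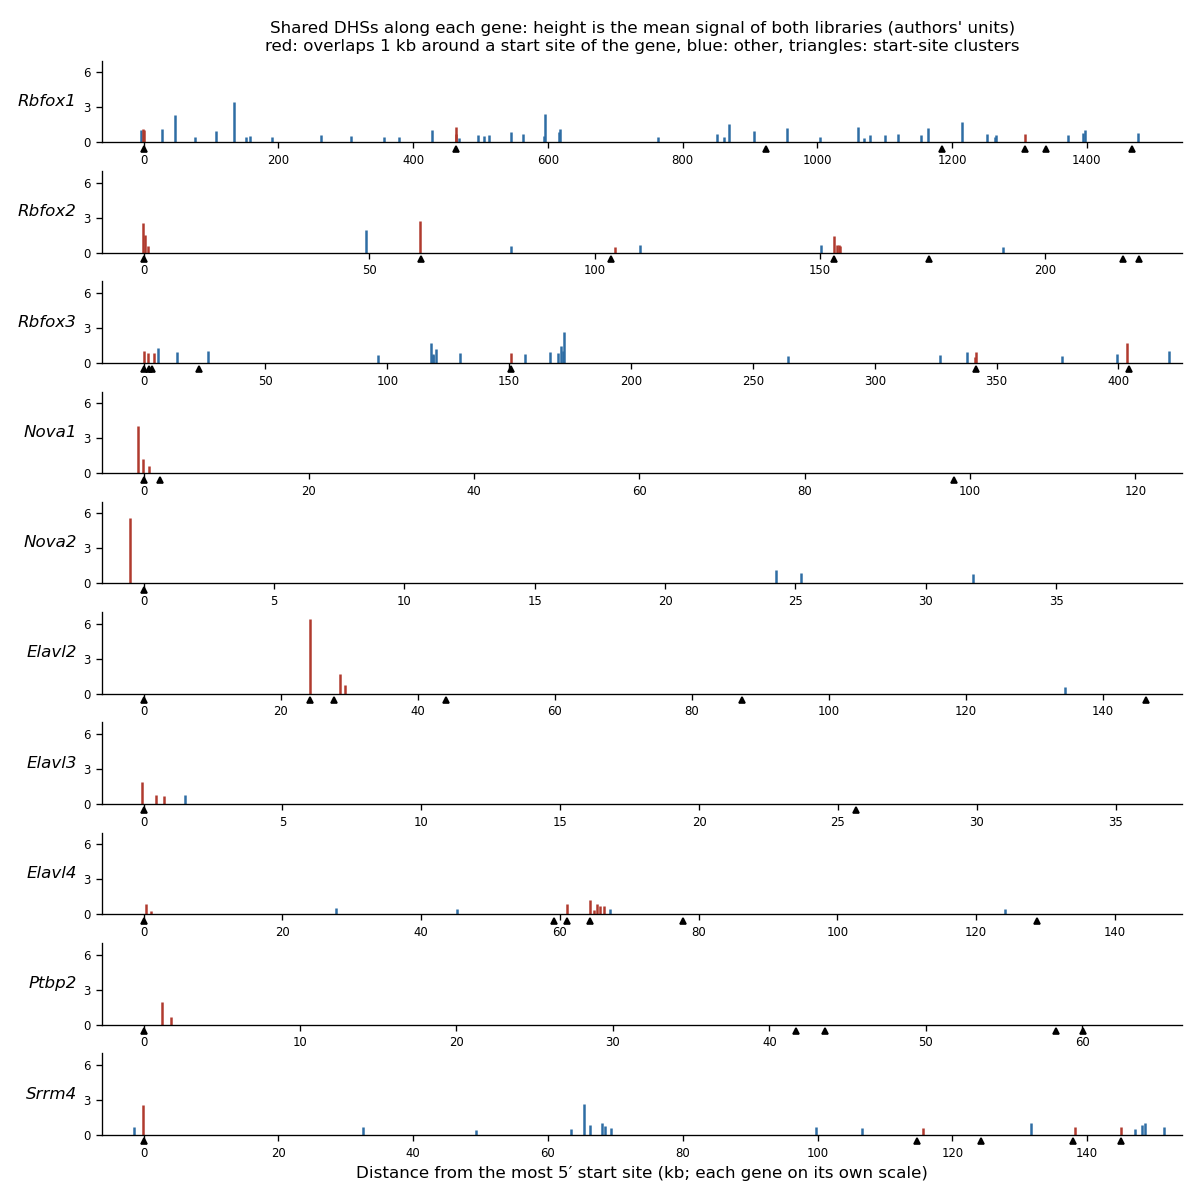
Shared DHSs along each of the 10 genes, by distance from the most 5′ start site in kb (each gene on its own scale), with the mean signal of both libraries (authors' units) as height. Red sites overlap the 1 kb around a start of the gene, blue sites do not, and triangles mark start-site clusters. Rbfox1, Rbfox3 and Srrm4 carry many sites away from their starts, while Nova1 and Ptbp2 carry none.

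Rbfox1 held 51 peaks in replicate 1, 130 in replicate 2 and 49 shared DHSs. Of the 130, 80 (61.5%) were found in replicate 2 only, against 54.4% of all peaks of replicate 2. All 45 distal shared DHSs of Rbfox1 were intronic and they were spread over the gene. Of these, 23 lay nearer to its 5′ end than to its 3′ end. They began 26.8 kb and ended 1476 kb from the most 5′ start. Rbfox3 held 36 and 59 peaks and 28 shared DHSs, 20 of them distal. Srrm4, only 153 kb long, held 20 and 28 peaks and 18 shared DHSs, 15 of them distal. Nova1 stood at the other end, with 1 peak in replicate 1 and 5 in replicate 2 over 124 kb, and its 1 shared DHS lay at its promoter. Ptbp2 held 2 peaks in each library, both at its promoter.

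Per 100 kb of gene body the densities were 11.8 shared DHSs in Srrm4, 8.10 in Elavl3, 8.10 in Elavl4, 7.61 in Nova2, 6.64 in Rbfox3, 5.70 in Rbfox2, 3.21 in Rbfox1, 3.04 in Ptbp2, 2.67 in Elavl2 and 0.804 in Nova1. Across protein-coding genes the median density went from 5.53 at lengths of 10 to 20 kb to 1.61 at 640 kb and over, so each gene was set beside protein-coding genes within 1.5 times its own length. Srrm4 lay at percentile 99.6 of 1617 such genes (median 3.51), Rbfox3 at percentile 96.8 of 474, Elavl4 at percentile 93.5 of 1666 and Rbfox1 at percentile 90.9 of 55. These densities include sites near start sites. In Elavl4 only 5 of 12 shared DHSs were distal, against 15 of 18 in Srrm4, 20 of 28 in Rbfox3 and 45 of 49 in Rbfox1. Nova1 lay at percentile 7.81 of 1972 genes, Elavl2 at percentile 36.6 and Ptbp2 at percentile 40.6.

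The order depended on the peak list. On the authors' stricter list Srrm4 had 6 shared DHSs and percentile 87.8, Rbfox3 11 and percentile 85.4, Elavl4 7 and percentile 92.5, and Rbfox1 24 and percentile 87.3. Nova2 went from 3 shared DHSs in its body to 0 (percentile 17.8) and Elavl3 from 3 to 0 (percentile 18.9), while Nova1 stayed low at 1 (percentile 19.1). Ptbp2 moved from percentile 40.6 to percentile 64.1 with the same count of 2.

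**Figure D3:**
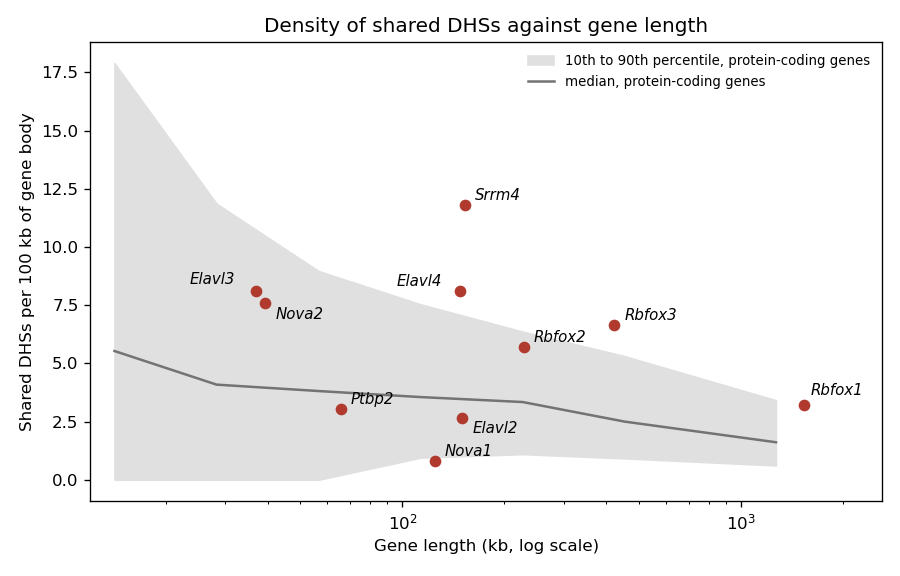
Shared DHSs per 100 kb of gene body against gene length (kb, log axis). The grey line is the median of protein-coding genes in 7 bins of length and the band their 10th to 90th percentile; red points are the 10 members. Srrm4 at 11.8, Elavl4 at 8.10 and Rbfox3 at 6.64 lie above the band and Nova1 at 0.804 below it.

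Within 50 kb of any of a gene's start sites the members had 84 distal shared DHSs in all, counted gene by gene. Rbfox3 had 21, Rbfox1 and Srrm4 17 each, Rbfox2 11, Nova2 7, Elavl3 and Elavl4 5 each, Elavl2 1, and Nova1 and Ptbp2 none, as do 18.8% of all protein-coding genes. The mean was 8.40 against 3.21 over all protein-coding genes (medians 6 and 3). The number of start sites moves with this count. For the 6 members with 8 or more start sites the mean was 9.17, against 4.68 for the 3326 genes with as many, and around the most 5′ start alone it was 3.10 for the members against 2.59 for all (medians 3 and 2).

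Other genes share some of these windows. The starts of 7 other protein-coding genes lie within 50 kb of an Elavl3 start, and 4 of the 5 distal DHSs there lie outside Elavl3. Of the 7 around Nova2, 4 lie upstream of the gene, and the highest of them, 2.82 kb upstream, reached 2.52 and 2.88. For Srrm4 14 of 17 and for Rbfox1 16 of 17 lie inside the gene itself. These counts assign no site to a target gene.

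The highest distal site of each gene body differed widely between the genes. The Rbfox1 site 134 kb into the gene had 3.76 and 3.20, above every promoter peak of that gene in both libraries, and no other shared DHS lay within 5 kb of it. The Rbfox3 site, 173 kb into the gene, had 2.95 and 2.34, also above that gene's highest promoter peak in both libraries, and 3 other shared DHSs lay within 5 kb. The Srrm4 site 65.3 kb into the gene had 1.94 and 3.32, a range that overlaps the Srrm4 promoter's 2.94 and 2.12. It stood in a group, with 5 other shared DHSs within 5 kb whose mean signals ran from 0.541 to 0.978.

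The highest distal site of Rbfox2, 49.4 kb into the gene, had 1.60 and 2.28, below its promoter's 2.31 and 3.18 in both libraries. Outside the gene, a site 29.6 kb upstream of Rbfox2 had 2.22 and 1.86. The 4 remaining genes with a distal site in their body had lower ones. Nova2 had 0.871 and 1.41 at 24.2 kb, and Elavl3 0.832 and 0.702 at 1.49 kb. Elavl4 had 0.663 and 0.767 at 66.4 kb, 1.08 kb from its nearest start, and Elavl2 had 0.632 and 0.508 at 134.5 kb. For Elavl2 the distance between promoter and distal height was the widest of the 8 genes that have both, while Nova1 and Ptbp2 had no distal site to compare.

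All 3 Rbfox distal sites printed above hold the letters AGGGGGC, a core of the binding sequence of the insulator protein CTCF, inside a footprint of both libraries. In the Rbfox3 site they read AGGGGGC on the printed strand, and in the Rbfox1 and Rbfox2 sites GCCCCCT, the same letters on the opposite strand. This core was picked after the 3 sequences had been read. The core searched first had 9 letters, AGGGGGCGC, and is held by the Rbfox2 site alone of the 3. In the 200 bp around the centre of a DHS, on both strands, AGGGGGC is held by 7.88% of all 52910 distal shared DHSs and by 16.2% of the 3716 whose mean signal is at least 1.94, the lowest of the 3 Rbfox sites. The members' distal DHSs hold it in 12 of 116 cases (10.3%). Of these, 11 are among the 80 around the Rbfox genes, 7 of those 11 in a footprint of both libraries. All of these counts include the 3 sites from which the core was picked. The 10.3% is therefore not independent of that choice, and no enrichment can be read from it. The 9-letter core is held by 4 of the 116 (3.45%, against 1.78% of all), all around Rbfox2 and Rbfox3. A match describes letters, and binding was not measured.

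Promoter DHSs were searched in the same way with 15 short motifs, chosen with the data at hand. CCAAT, the box read by the factor NF-Y, is held by the highest promoter DHS of 7 of the 10 genes (Rbfox2, Rbfox3, Nova1, Nova2, Elavl2, Elavl3 and Elavl4), against 33.6% of the 12387 distinct highest promoter DHSs of all protein-coding genes. In the Elavl2 and Rbfox3 peaks it occurs at 2 places each, 1 of them inside a footprint of both libraries. No match in the Rbfox2, Nova1, Nova2 or Elavl3 peak lay wholly inside a footprint of either library. The Elavl4 matches did so in replicate 2 only. A wider set was the 45 DHSs of the members whose midpoint lies within 1 kb of a start of any gene, not only of the member. CCAAT was held by 8 of these (17.8%), against 27.0% of 25255, a share below that of all such DHSs. GGGCGG, the GC box of Sp1, was held by 3 of the 10 highest promoter DHSs against 56.3% of all, and by 19 of the 45 (42.2%) against 43.0% of all, nearly the same share. The E-box CAGATG was held by 11 of the 45 (24.4%, against 10.7%) and CAGCTG by 12 (26.7%, against 13.8%), and CCGGAAG of ETS factors by 1 (2.22%, against 9.19%). TGANTCA, the AP-1 site, was in none of the 45 (against 4.25%). With so few members these shares rest on a handful of DHSs.

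Footprints were counted inside the promoter peaks and the DHSs. Where promoter peaks of 1 library overlapped, footprints and bases were counted once per peak, for the members and for all genes alike. The promoter sums of the members therefore exceed their numbers of distinct footprints. Replicate 1 had 115 in the members' promoter peaks, 9.69 per kb against 11.3 per kb in those of all protein-coding genes. Replicate 2 had 165, 11.9 per kb against 12.2. The Nova2 promoter peak held 5 in 200 bp in replicate 1, and its promoter peaks held 6 in 367 bp in replicate 2. The highest promoter peak of Ptbp2 held 6 in 200 bp in replicate 1. For Elavl4 the sum over its peaks was 26 in each library, at 8.51 and 6.85 per kb. The overlapping peaks at its most 5′ start raised that sum. They lay in 1 merged DHS, which held 9 distinct footprints in replicate 1 and 6 in replicate 2. The authors gave all footprints the same p-value, so they could not be ranked.

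The members had 161 distinct shared DHSs in their promoters, bodies and 50 kb windows. They held 341 footprints in replicate 1 and 515 in replicate 2, and 224 of the former (65.7%) overlapped one of the latter. In 3 DHSs neither library had a footprint. Genome-wide, replicate 1 had 199455 footprints and replicate 2 had 416840. The overlap and the DHSs without a footprint were not counted over all shared DHSs. Neither value can be called particular to the members. Signals of both libraries were within 2-fold of each other in all but 3 of the 161 (1.86%, against 5.00% of all shared DHSs). All 3 lay in Rbfox1 introns, with 1.02 and 2.04 at 870 kb, 0.809 and 0.388 at 1154 kb, and 0.524 and 1.08 at 1476 kb from the most 5′ start. The log2 ratio of replicate 2 to replicate 1 had a median of 0.08 and an SD of 0.45 over the 161, beside -0.05 and 0.52 over all shared DHSs.

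**Figure D4:**
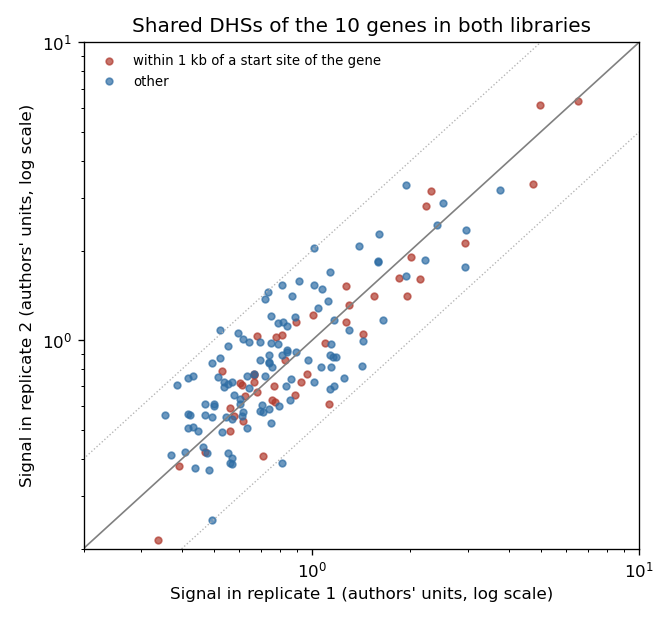
Signal of the 161 shared DHSs of the 10 genes in replicate 1 (x axis) and replicate 2 (y axis), both in the authors' units on log axes. Red points lie within 1 kb of a start of the gene and blue points elsewhere, the solid line marks equal values and the dotted lines a 2-fold difference, which 3 points exceed.

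Other splicing genes were set beside the members by promoter peaks in both libraries. All protein-coding genes had one in 62.7% of cases, and those with 8 or more start sites in 95.0%. The median number of start sites was 8 for the brain-expressed regulators, 9 for the constitutive genes and 11.5 for the known targets. Full counts in these lists thus lie near the share of genes with many start sites. All 15 brain-expressed regulators outside the members had one (median signal 2.62), led by the CELF family gene Celf3 at 5.22 and 5.98 and by Khdrbs1, which encodes Sam68, at 4.38 and 3.92. All 25 constitutive SR, hnRNP and spliceosome genes had one too, with a median of 5.42, led by Hnrnpc at 13.8 and 12.6 and Srsf3 at 8.62 and 7.29. Promoters of the general machinery were thus higher in the median than those of the members, at 2.24. The 12 genes taken as known targets of the members, among them the NMDA receptor gene Grin1 (3.34 and 3.90) and Dlg4, which encodes PSD-95 (2.73 and 3.28), all had a promoter peak in both libraries.

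Of 4 close relatives used outside neurons, 3 had a promoter peak in both libraries. Ptbp1, which represses neuronal exons in other cells and in progenitors, had 6.87 and 7.69, above the 2.00 and 1.91 of Ptbp2 in both libraries. Elavl1, the ubiquitous Hu gene, had 5.39 and 5.10, below Elavl2 in both libraries and above Elavl3 and Elavl4. Ptbp3 had 2.26 and 1.49, and Mbnl3 had no promoter peak in replicate 1 and one of 0.309 in replicate 2. Of 7 splicing regulators of epithelium, muscle and liver, 3 had a promoter peak in both libraries, led by Rbm38 at 2.74 and 2.35 and Rbm20 at 1.16 and 0.901. A1cf, Esrp2 and Rbm47 had none in either library.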

How the data were processed

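DNase-seq was analysed in left cerebral cortex of 2 mice, 1 library each, which form 1 group. Per the labels, the deposited files are on mm10. No source used here names the aligner or the callers of peaks and footprints. Each library came with 2 lists of peaks, and the longer was used. Per the deposited notes, the authors derived every peak list from the alignments of 1 library, without pooling, and gave each peak a signal value (column 7), whose scale is not stated. The deposited footprints carry a constant p-value of 0.01, and the deposited cleavage-rate segments list only a q-value of at most 0.05.

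Genes and start sites came from GENCODE M21 on the mm10 build, and sequences from that genome, with exons of GENCODE and RefSeq masked. Peaks overlapping by at least 1 bp were merged, and a shared DHS holds a peak of each library. Sites are distal when their midpoint is over 1 kb from any start site. Coordinates are 1-based. The members and gene lists were chosen with earlier results of these data known. All 10 members are named, with each one's highest promoter peak and highest distal gene-body site. Of each other list the 2 highest genes and up to 2 without a peak are named, and further genes were named after their values were seen. The motifs, the comparison with genes within 1.5 times the length and with genes of 8 or more start sites, the minimum of 100 bases for a printed promoter, and the 5 kb neighbourhood were chosen after the files had been read. No test was run, since there is 1 group of 2 libraries. Interval functions were tested on simulated data (400 checks, 0 wrong). Python 3.11.15, NumPy 2.4.6, pandas 2.3.3 and samtools 1.23.1 were used.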

Additional observations from a re-analysis of the deposited data

How the results depend on the processing

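Over 40 alternatives to 6 results, 31 left the value within its limits and 9 did not. The limits were a fixed fold change for counts and the SD between the libraries, 0.148, for the median promoter signal. Some of the 31 were bound to stay. Using 1 library alone or a window of 2 kb cannot lower the number of members with a promoter peak. Promoter peaks in both libraries were found at 10 of 10 members on the stricter list, with equal numbers of peaks (the 90059 highest of each library), and with windows of 500 bp or 2 kb. The most 5′ start gave 7 to 9 of 10. The 133 shared gene-body DHSs became 59 on the stricter list, and the peaks of 1 library alone numbered 153 to 297. The 84 distal DHSs within 50 kb became 39 on the stricter list, 41 within 20 kb, 137 within 100 kb and 31 around the most 5′ start, and 97 to 214 in 1 library alone. Footprints in promoter peaks, counted once per peak, had a mean of 140 over both libraries. That became 57 at the most 5′ start and 115 to 165 in 1 library. The median promoter signal of 2.24 was 2.01 to 2.22 in 1 library. The cause of these moves was not tested. With unknown depth, a start site without a peak was not shown to be closed. No paired analysis was possible because there is only 1 group.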
